A study of Drosophila melanogaster with 8 samples.

Results

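A set of 74 of the 17473 genes in the deposited tables was close to silent in wild type larvae and abundant in larvae that lack Smn. Each of the 74 was under a TPM of 1 in both WT libraries and at 10 or more in both SmnΔ/Δ libraries. TPM is the share of transcripts that a gene holds, corrected for gene length and scaled to a common total. Before family names were considered, 106 genes (0.607% of all genes) met both limits, and 32 of them were left out because their FlyBase symbols begin with Twdl (16 genes), Osi (9), Cpr (6) or Lcp (1). The prefixes Obp and ng, which were also to be left out, took away 0 genes. The SmnΔ/Δ and WT values chose the genes, so they are given as a description and were not tested. The libraries of the U12Δ/Δ and U6atacΔ/Δ strains were not used in the choice.

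RNA-seq was performed on whole Drosophila melanogaster larvae at the wandering L3 stage, in 8 libraries with RNA of 12 larvae each. The study asked what disruption of minor splicing has in common with loss of SMN, the protein lost in spinal muscular atrophy. There were 2 libraries from each of 4 strains. The genotype Smn-delta/delta is a homozygous CRISPR/Cas9 deletion of the Smn gene, U12-delta/delta lacks the U12 snRNA gene in the same way, U6atac-delta/delta lacks the U6atac snRNA gene, and WT is the w1118 strain. The deletion lines had been crossed back to the wild type strain and were kept over balancer chromosomes carrying GFP, so that homozygous larvae could be picked by their lack of green fluorescence. Smn mRNA itself stood at 4.57 and 0.653 TPM in the SmnΔ/Δ libraries, 9.76 and 200.3 TPM in U12Δ/Δ, 13.96 and 9.57 TPM in U6atacΔ/Δ, and 24.7 and 28.3 TPM in the WT libraries. The U12 snRNA gene was listed at 0 in both U12Δ/Δ libraries and at between 0.0724 and 1.33 TPM in the other 6. With WT itself at only 0.0724 and 0.454 TPM, these values check the U12Δ/Δ label weakly. For the U6atac snRNA gene every library, WT included, had a TPM of 0, which leaves the label of that strain unchecked by these values. The study reports northern blots in which the deleted snRNA could not be detected in either homozygous strain. The study compared its libraries with public data of staged larvae and placed SmnΔ/Δ at an earlier time of the last larval instar than WT, U12Δ/Δ and U6atacΔ/Δ. Developmental stage and the loss of Smn therefore cannot be told apart in the values below.

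SMN helps to assemble spliceosomal snRNPs, and U12 and U6atac snRNAs belong to the minor spliceosome, which removes a small class of introns. The larval cuticle is made by the epidermis and the tracheae as a layered matrix of chitin and proteins. It is shed and rebuilt at each moult under the control of the steroid hormone ecdysone, and many of its genes are transcribed only for a short time in each moulting cycle. Before the wandering stage ends, salivary glands make glue proteins and the fat body makes larval serum proteins.

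The libraries of a strain differed widely from each other, with a Spearman correlation across genes between 0.671 and 0.748, and an SD of the log2 difference between 1.77 and 1.93. Markers of some tissues also differed between SmnΔ/Δ and WT, and those of others overlapped. The 6 salivary glue genes summed to 1.06 and 0.872 TPM in SmnΔ/Δ, 211173 and 18.3 TPM in U12Δ/Δ, 643 and 2220 TPM in U6atacΔ/Δ, and 16212 and 8048 TPM in WT, and all 6 were under 1 TPM in both SmnΔ/Δ libraries. The 6 fat body genes summed to 3.89 and 0.507 TPM in SmnΔ/Δ and to between 28353 and 116163 TPM in the other 6 libraries. Epidermal markers (kkv, vvl, grh and ovo) summed to 135 and 82.6 TPM in SmnΔ/Δ and to 61.2 and 148.9 TPM in WT, with overlapping groups. Those of the trachea summed to 1342 and 2438 TPM in SmnΔ/Δ and to 358 and 1782 TPM in WT, which also overlapped. Sums for muscle, neurons and testis overlapped as well. Midgut markers were lower in SmnΔ/Δ (1975 and 2011 TPM) than in WT (4648 and 2257 TPM), as were those of haemocytes (117 and 131 TPM, against 383 and 679 TPM). The part of these differences in the values below was not tested. In RNA from whole larvae, fewer cells of a type and less RNA per cell cannot be told apart.

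Values of a few thousandths of a TPM, and for short genes hundredths, are less than a single whole read would give at the read numbers the study states, and are read here as close to 0 without an order among them. The 74 genes together held 1.37% and 1.35% of the TPM in the SmnΔ/Δ libraries, 0.00883% and 0.0148% in U12Δ/Δ, 0.0133% and 0.00931% in U6atacΔ/Δ, and 0.00185% and 0.00147% in WT. The median gene stood at 57.1 and 28.5 TPM in SmnΔ/Δ, 0.0802 and 0.192 TPM in U12Δ/Δ, 0.150 and 0.0822 TPM in U6atacΔ/Δ, and 0.131 and 0.148 TPM in WT. The plot of the 74 genes by library shows this gap. In the minor snRNA deletion libraries the bulk of the genes lay at the WT level, with a tail of higher values that WT lacked by the choice of the genes.

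**Figure D1:**
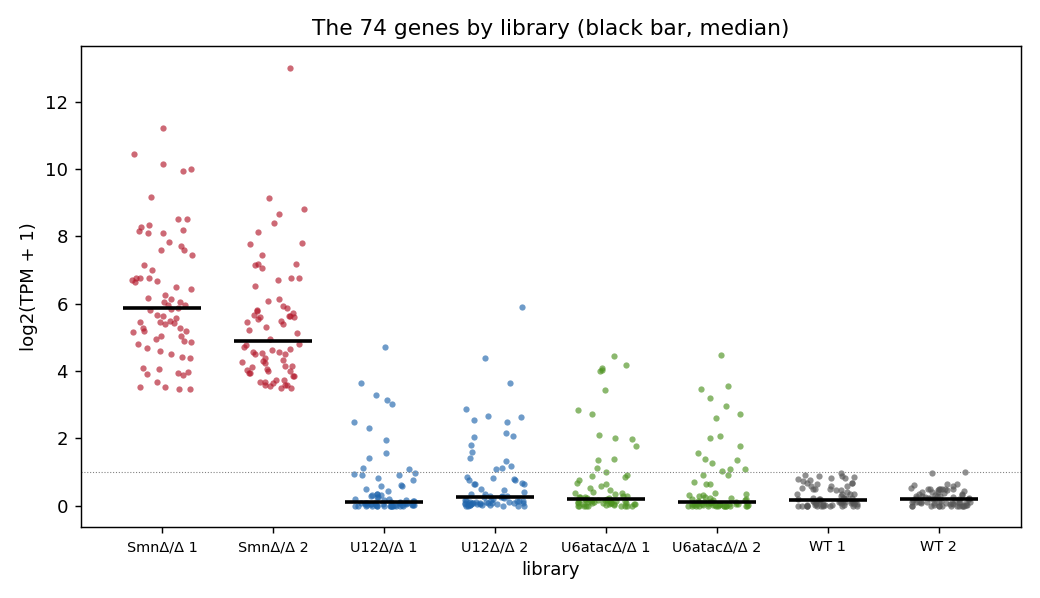
Expression of the 74 genes as log2(TPM + 1) in each of the 8 libraries, 1 point per gene, with the median as a black bar and a dotted line at 1 TPM. The points of both SmnΔ/Δ libraries lie at 10 TPM or more and those of both WT libraries under 1 TPM by the choice of the genes, whereas the U12Δ/Δ and U6atacΔ/Δ libraries keep low medians with single genes up to 58.9 TPM.

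Among the 74 genes, 73 are annotated as protein coding, 58 carry only a CG number as their name, and 15 have another symbol. A role was assigned to 18 of them from their names and synonyms, and the other 56 are described by their values. The largest group with a role was cuticle and apical matrix proteins, with 8 genes. In SmnΔ/Δ library 1 these 8 ranged between 37.5 and 2397 TPM with a median of 469.8 TPM, and in library 2 between 10.8 and 278 TPM with a median of 19.5 TPM. They stayed at 5.61 TPM or less in all 4 U12Δ/Δ and U6atacΔ/Δ libraries, and 0 of them reached 1 TPM in all 4.

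Within that group, Ccp84Ac, Ccp84Ae and Ccp84Af belong to a cluster of cuticle protein genes on chromosome 3R. Ccp84Ac stood at 2397 and 70.0 TPM in SmnΔ/Δ, 0 and 1.26 TPM in U12Δ/Δ, 0.168 and 0.00627 TPM in U6atacΔ/Δ, and 0.127 and 0.414 TPM in WT. Ccp84Ae stood at 1137 and 10.8 TPM in SmnΔ/Δ, was listed at 0 in both U12Δ/Δ libraries, and was at 0.0164 and 0 TPM in U6atacΔ/Δ and at 0 and 0.0757 TPM in WT. Ccp84Af stood at 989 and 19.2 TPM in SmnΔ/Δ, against 0.0342 and 0.119 TPM in WT, and did not pass 0.112 TPM in the 4 minor snRNA deletion libraries. All 3 genes were far higher in library 1 than in library 2 of SmnΔ/Δ. The other 4 genes of the family did not meet the limits. Ccp84Ad was at 1841 and 136.6 TPM in SmnΔ/Δ and at 4.97 and 1.33 TPM in WT, Ccp84Ag was at 2662 and 209 TPM in SmnΔ/Δ and at 5.33 and 7.98 TPM in WT, and Ccp84Aa was at 302 and 14.99 TPM in SmnΔ/Δ and at 2.62 and 2.52 TPM in WT. Ccp84Ab missed both limits, with 984 and 5.65 TPM in SmnΔ/Δ and 1.59 and 1.34 TPM in WT. Thus the limits divided a family whose members all had both SmnΔ/Δ libraries above both WT libraries.

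Vajk1 and Vajk4, of a small family counted here among cuticle proteins, showed the same uneven libraries. Vajk1 stood at 572 and 13.3 TPM in SmnΔ/Δ, 0.0423 and 0.392 TPM in U12Δ/Δ, 5.61 and 0.0329 TPM in U6atacΔ/Δ, and 0.282 and 0.178 TPM in WT. Vajk4 stood at 65.7 and 16.3 TPM in SmnΔ/Δ and at 0.267 and 0.0646 TPM in WT, and reached at most 0.722 TPM in U12Δ/Δ and U6atacΔ/Δ. Their relatives Vajk2 and Vajk3 were abundant in WT, at 262 and 343.8 TPM for Vajk2 and at 798 and 144.7 TPM for Vajk3.

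The remaining members of the group were more even between the libraries. The gene dyl (dusky-like) codes for a zona pellucida domain protein of the apical extracellular matrix. It stood at 368 and 278 TPM in SmnΔ/Δ, 0.412 and 1.69 TPM in U12Δ/Δ, 3.06 and 5.05 TPM in U6atacΔ/Δ, and 0.0953 and 0.445 TPM in WT, so that both U6atacΔ/Δ libraries lay above both U12Δ/Δ libraries. Tb (Tubby), in which mutations shorten the larval body, is a Tweedle gene whose symbol escapes the Twdl prefix. It stood at 108 and 175 TPM in SmnΔ/Δ, against 0.0705 and 0 TPM in WT, and reached 0.194 TPM in U12Δ/Δ library 2 while it was listed at 0 in the other 3 minor snRNA deletion libraries. The 32 genes left out by prefix, which include 16 Tweedle genes, had medians of 208 and 80.8 TPM in SmnΔ/Δ and of at most 0.172 TPM in the other 6 libraries. Muc91C, a mucin gene, stood at 37.5 and 19.9 TPM in SmnΔ/Δ and at 0.172 TPM or less elsewhere.

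ImpL1, identified as an ecdysone-inducible gene of imaginal discs, stood at 309.9 and 142.8 TPM in SmnΔ/Δ. It was at 0.918 and 1.16 TPM in U12Δ/Δ and at 1.57 and 0.887 TPM in U6atacΔ/Δ, all 4 above the 0.392 and 0.560 TPM of WT. Its namesakes differed among themselves. ImpE1 was at 13.9 and 44.2 TPM in SmnΔ/Δ and at 36.3 and 6.29 TPM in WT, with overlapping groups. ImpL2, an insulin-binding protein gene, was at 499 and 447 TPM in SmnΔ/Δ, 4.74 and 11.3 TPM in U12Δ/Δ, 193 and 1223 TPM in U6atacΔ/Δ, and 9.16 and 31.2 TPM in WT, so that SmnΔ/Δ and U6atacΔ/Δ lay above WT and U12Δ/Δ overlapped with it.

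Serine protease genes were represented by CG4998, whose synonym cSPH66 marks it as a protease homologue with a clip domain, and by CG7432, whose synonym is cSP19. CG4998 stood at 229 and 449 TPM in SmnΔ/Δ, against 0.0925 and 0.276 TPM in WT, and did not pass 0.116 TPM in the minor snRNA deletion libraries. CG7432 stood at 32.0 and 90.9 TPM in SmnΔ/Δ, against 0.889 and 0.238 TPM in WT, and reached 1.13 TPM in U6atacΔ/Δ library 2. These 2 genes, unlike 7 of the 8 cuticle and apical matrix genes, were higher in library 2 of SmnΔ/Δ.

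Of the 74 genes, Ccp84Ac had the highest value in SmnΔ/Δ library 1, and CG7406, with no role assigned here, had the highest in library 2. CG7406 stood at 100.7 and 8279 TPM in SmnΔ/Δ, against 0.273 and 0.968 TPM in WT, so that its 2 SmnΔ/Δ libraries differed more than those of any other of the 74 genes except Ccp84Ae. CG13699 stood at 1396 and 143 TPM in SmnΔ/Δ, and in U12Δ/Δ library 1 it was at 4.55 TPM. CG12480 stood at 1038 and 220.2 TPM in SmnΔ/Δ, CG14107 at 277 and 569.7 TPM, and CG3546 at 57.0 and 409 TPM. These 3 reached at most 0.365 TPM in the U12Δ/Δ and U6atacΔ/Δ libraries.

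Over all 74 genes, 47 were higher in SmnΔ/Δ library 1 and 27 in library 2. The higher library exceeded the lower by a median of 2.67-fold, with 45 genes over 2-fold and 10 over 10-fold. A mean of at least 100 TPM was reached by 24 genes, and 100 TPM in both libraries by 10 genes. The scatter of both SmnΔ/Δ libraries shows that the cuticle genes Ccp84Ac, Ccp84Ae, Ccp84Af and Vajk1 lay far on the side of library 1. The number of genes that meet the limits depends on both libraries, since 135 genes met them without SmnΔ/Δ library 1 and 145 without library 2.

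**Figure D2:**
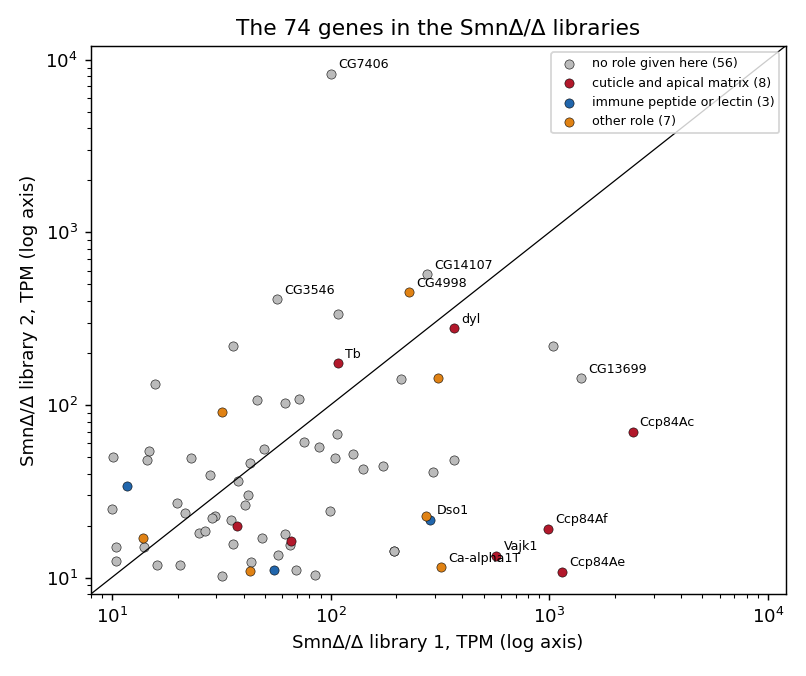
TPM of each of the 74 genes in SmnΔ/Δ library 1 (horizontal, log axis) and library 2 (vertical, log axis), coloured by role, with the line of equal values. Points below the line are the 47 genes higher in library 1, among them 7 of the 8 cuticle and apical matrix genes, and CG7406 stands apart at 8279 TPM in library 2.

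The limits cut through a continuous range of values. The genes closest inside the WT limit were Ca-alpha1T at 0.977 TPM in its higher WT library, CG7406 at 0.968 and rau at 0.959. Those closest outside it were CG13218 at 1.01, BomS2 at 1.03 and Ass at 1.09 TPM. For the SmnΔ/Δ limit, CG13995 at 10.04, CG13049 at 10.08 and CG11585 at 10.2 TPM in the lower library lay just inside, and CG17781 at 9.94, CG14105 at 9.62 and CG13170 at 9.58 TPM just outside.

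The libraries that played no part in the choice show whether the 74 genes were also present in larvae without the minor snRNAs. At the level of 1 TPM, most of them were not. In all 4 U12Δ/Δ and U6atacΔ/Δ libraries, 71 of the 74 genes lay below both SmnΔ/Δ libraries, against 16.3% of all genes, a share that the choice of high SmnΔ/Δ values raises. The 3 genes not below both SmnΔ/Δ libraries in all 4 were Dso1, Ca-alpha1T and CG11585. For 53 genes the lower SmnΔ/Δ library was at least 10-fold above the highest of the 4, and the median of this ratio was 55.4. With SmnΔ/Δ chosen at 10 TPM or more, every gene under 1 TPM in all 4 passes 10-fold, so this count is a description. In all 4 libraries, 44 of the 74 genes (59.5%) were under 1 TPM, against 36.8% of all 17473 genes and 89.3% of the 5783 other genes that were also under 1 TPM in both WT libraries. CG31560 was listed at 0 in all 4 as well as in WT, and stood at 14.1 and 14.99 TPM in SmnΔ/Δ. CG7548 (174 and 44.1 TPM in SmnΔ/Δ), CG12523 (27.998 and 39.02 TPM) and CG13216 (35.03 and 21.5 TPM) did not pass 0.07 TPM in any of the 4.

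Presence at 1 TPM or more in at least 1 of the 4 libraries was found for 30 of the 74 genes (40.5%), against 63.2% of all genes and 10.7% of the other genes low in WT. It was found in exactly 1 library for 15 genes (20.3%), against 7.32% of all genes and 7.09% of the others low in WT, and in all 4 for 5 genes (6.76%), against 42.5% of all genes and 0.380% of the others low in WT. By single library, between 12 and 18 of the 74 genes (16.2% and 24.3%) reached 1 TPM. For the other genes low in WT the shares lay between 3.68% and 4.46%. Of all genes in the deposited tables, between 8965 and 9563 reached that level. All 5889 genes under 1 TPM in both WT libraries, the 74 and the genes left out by prefix included, had WT medians of 0.0105 and 0 TPM. The 74 genes had WT medians of 0.131 and 0.148 TPM, and the part of this difference was not tested. At 10 TPM or more in both libraries of a strain, the numbers were 2 genes in U12Δ/Δ (2.70%, against 0.0346% of the other genes low in WT and 19.3% of all genes) and 1 gene in U6atacΔ/Δ (1.35%, against 0.0519% and 20%). Without U6atacΔ/Δ library 1 this count was 3, and without library 2 it was 5.

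**Figure D3:**
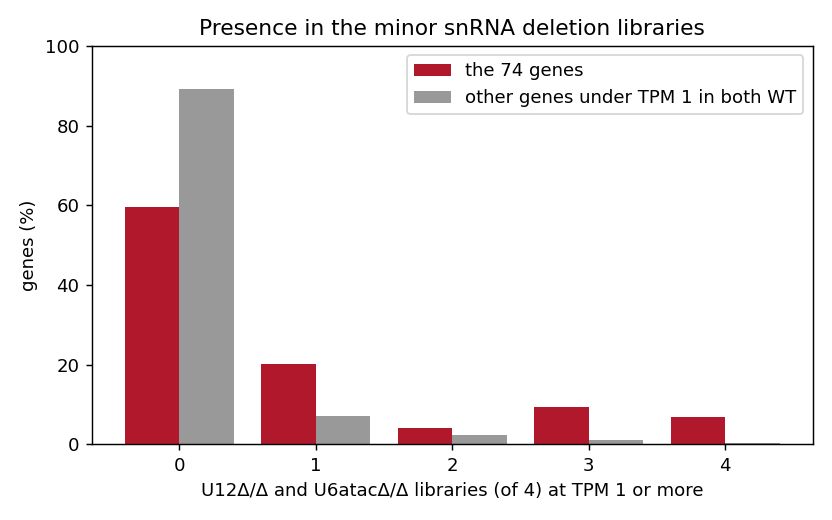
Share of genes (%) by the number of U12Δ/Δ and U6atacΔ/Δ libraries, of 4, in which the gene reached 1 TPM, for the 74 genes (red) and for the other 5783 genes under 1 TPM in both WT libraries (grey). Both groups peak at 0 libraries, at 59.5% and 89.3%, and the 74 genes have larger shares at 1, 2, 3 and 4 libraries.

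Of the 8 genes with the highest mean log2(TPM + 1) over the 4 minor snRNA deletion libraries, 2 are immune genes. The others were a calcium channel gene, a signalling adaptor, a gene with synonyms of DNA repair factors and 3 genes with no role assigned here. Of the 8, 0 were assigned to the cuticle and apical matrix group, which leaves the 3 unassigned genes undecided. Dso1 (Daisho1) codes for a short peptide that is secreted after infection under the Toll pathway. It stood at 284 and 21.7 TPM in SmnΔ/Δ, 25.2 and 58.9 TPM in U12Δ/Δ, 20.7 and 8.12 TPM in U6atacΔ/Δ, and 0.834 and 0.159 TPM in WT. Its 6 libraries from deletion strains all exceeded both WT libraries, those of SmnΔ/Δ and U12Δ/Δ overlapped, and U6atacΔ/Δ lay below both. Its neighbour in the family, Dso2, was at 8.17 and 8.07 TPM in SmnΔ/Δ, 5.06 and 6.34 TPM in U12Δ/Δ, 8.86 and 1.15 TPM in U6atacΔ/Δ, and 0.210 and 1.26 TPM in WT. GNBP-like3, named for its likeness to microbe-binding proteins, stood at 55.2 and 11.04 TPM in SmnΔ/Δ, 7.06 and 3.49 TPM in U12Δ/Δ, 3.32 and 1.98 TPM in U6atacΔ/Δ, and 0.259 and 0.486 TPM in WT, and every deletion library was again above WT. The third immune gene, lectin-37Da, a galactose-binding C-type lectin, did not follow them. It was at 11.7 and 33.9 TPM in SmnΔ/Δ, 0.128 and 1.998 TPM in U12Δ/Δ, 0.0257 and 0.0166 TPM in U6atacΔ/Δ, and 0.503 and 0.0134 TPM in WT, and it lies within Pax, the paxillin gene of cell adhesion sites, which is on the other strand, with 301 and 42.5 TPM in SmnΔ/Δ and 88.3 and 328 TPM in WT.

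CG43175 gave the most even picture across the strains. It stood at 42.0 and 30.0 TPM in SmnΔ/Δ, 11.5 and 19.7 TPM in U12Δ/Δ, 9.82 and 10.7 TPM in U6atacΔ/Δ, and 0.748 and 0.0709 TPM in WT, so that the strains did not overlap in that order. CG14958 stood at 35.7 and 15.6 TPM in SmnΔ/Δ, 0.770 and 2.51 TPM in U12Δ/Δ, 15.03 and 10.03 TPM in U6atacΔ/Δ, and 0.420 and 0.146 TPM in WT, with U6atacΔ/Δ close to SmnΔ/Δ and U12Δ/Δ close to WT. CG45061 stood at 141 and 42.8 TPM in SmnΔ/Δ, 1.95 and 1.51 TPM in U12Δ/Δ, 17.1 and 2.39 TPM in U6atacΔ/Δ, and 0.138 and 0.555 TPM in WT. For each of these 3 genes with no role assigned here, the 4 libraries from U12Δ/Δ and U6atacΔ/Δ were above both WT libraries.

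Ca-alpha1T codes for the pore subunit of the T-type voltage-gated calcium channel, which shapes the firing of neurons. It stood at 320.5 and 11.5 TPM in SmnΔ/Δ, 0.531 and 5.22 TPM in U12Δ/Δ, 6.203 and 21.3 TPM in U6atacΔ/Δ, and 0.441 and 0.977 TPM in WT. Its high value in SmnΔ/Δ came from library 1, and library 2 was below U6atacΔ/Δ library 2. The gene rau, which codes for an adaptor that sustains receptor tyrosine kinase signalling in the developing eye and glia, stood at 272 and 22.6 TPM in SmnΔ/Δ, 2.85 and 3.15 TPM in U12Δ/Δ, 1.17 and 3.04 TPM in U6atacΔ/Δ, and 0.959 and 0.143 TPM in WT. CG12728, listed with the synonyms XRCC4 and XLF1 of DNA end-joining factors, stood at 13.9 and 16.9 TPM in SmnΔ/Δ, 7.88 and 3.18 TPM in U12Δ/Δ, 0.879 and 6.84 TPM in U6atacΔ/Δ, and 0.838 and 0.257 TPM in WT. For both genes every deletion library was above both WT libraries, in CG12728 by a small margin for U6atacΔ/Δ library 1.

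Hsp70Ba, a heat-inducible chaperone gene, stood at 42.7 and 10.9 TPM in SmnΔ/Δ, 8.78 and 0.0543 TPM in U12Δ/Δ, 0.982 and 5.61 TPM in U6atacΔ/Δ, and 0.683 and 0.217 TPM in WT. It has near-identical copies among which reads can be split, so its own level is uncertain. The other 5 copies exceeded 1 TPM in at least 1 WT library. Hsp70Bb was at 97.5 and 148.8 TPM in SmnΔ/Δ and at 5.57 and 5.41 TPM in WT, Hsp70Bc at 78.6 and 39.5 TPM in SmnΔ/Δ and at 1.15 and 0.855 TPM in WT, and Hsp70Bbb at 30.2 and 16.4 TPM in SmnΔ/Δ and at 2.93 and 3.06 TPM in WT. Hsp70Aa was at 186 and 6.49 TPM in SmnΔ/Δ and at 1.10 and 0.911 TPM in WT, and Hsp70Ab was at 87.7 and 13.1 TPM in SmnΔ/Δ and at 5.17 and 11.4 TPM in WT. All 5 had both SmnΔ/Δ libraries above both WT libraries, Hsp70Ab by a small margin. In the minor snRNA deletion strains the 5 ranged between 0.0592 and 59.8 TPM.

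**Figure D4:**
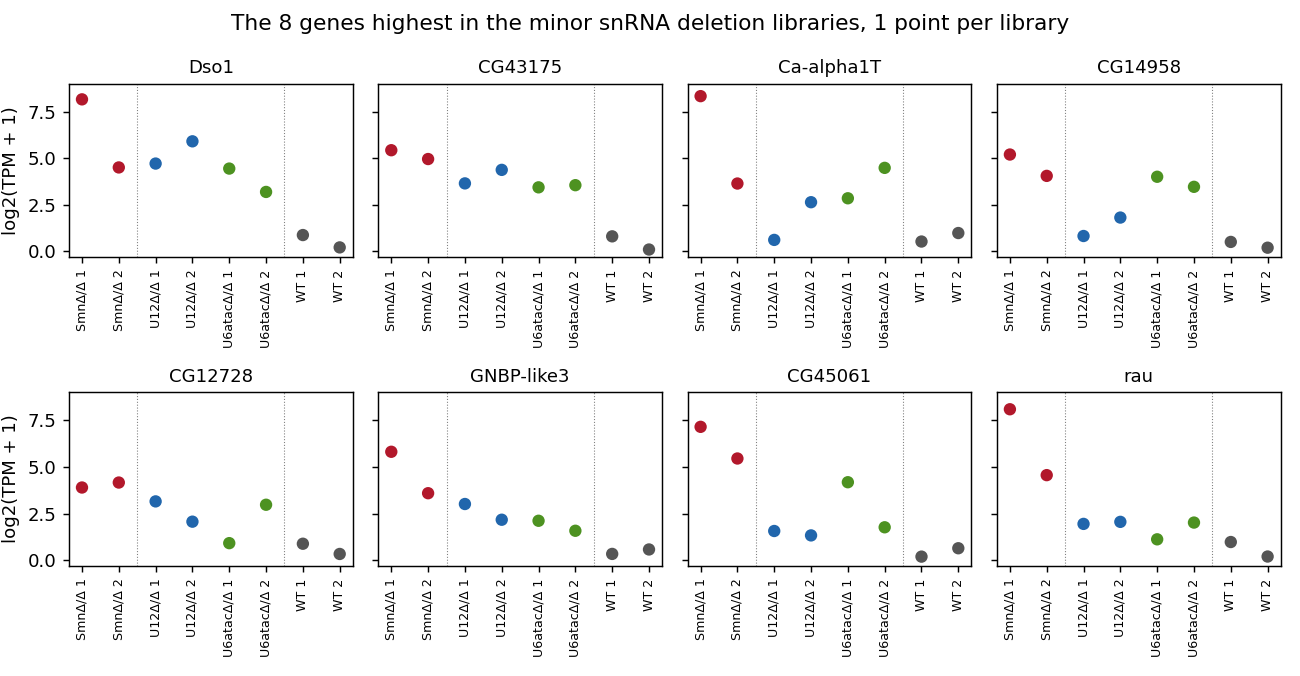
Expression as log2(TPM + 1) of the 8 genes, of the 74, with the highest mean of this value over the 4 U12Δ/Δ and U6atacΔ/Δ libraries, 1 point per library. Dso1, CG43175, GNBP-like3, CG45061, CG14958, rau and CG12728 have all 4 of these libraries above both WT libraries, and Ca-alpha1T has U12Δ/Δ library 1, at 0.531 TPM, under the higher WT library, at 0.977 TPM.

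Relative to WT, both U12Δ/Δ libraries were higher than both WT libraries for 16 of the 74 genes (21.6%). This compares with 8.26% of all genes and 7.12% of the other genes low in WT. They were lower for 7 genes (9.46%), against 27.9% of all genes and 15.1% of the others low in WT. Both U6atacΔ/Δ libraries were higher for 24 genes (32.4%), against 9.21% of all genes and 7.26% of the others low in WT. They were lower for 8, against 30.1% and 17.0%. Of the other genes low in WT, 47.8% were listed at 0 in WT library 1, against 16.2% of the 74 genes. The choice of genes under 1 TPM in WT limits how far a gene could be lower, and these comparisons share the WT libraries. All 4 libraries were above both WT libraries for 12 genes (16.2%), against 3.2% of all genes, which were CG12728, rau, CG4702, CG2150, GNBP-like3, Dso1, CG42331, CG42815, CG43175, CG45061, CG14958 and ImpL1. All 4 were below for CG3598, CG14565 and CG30458, or 4.05%, against 17.4% of all genes. These counts also order values read here as close to 0. CG2150 was at between 0.0267 and 0.119 TPM in the 4 libraries and at 0.00731 and 0.0156 TPM in WT. CG14565 was at 0.0571 TPM or less in the 4, against 0.0744 and 0.0687 TPM in WT.

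Across all genes, limma on log2(TPM + 1) was used for the comparisons with WT over the 11122 genes whose TPM averaged 1 or more across the 8 libraries. With Benjamini-Hochberg adjustment and a threshold of 0.05, 0 genes (0%) were called for U12Δ/Δ and 0 (0%) for U6atacΔ/Δ, and hence 0 of the 74 genes, all of which were tested. At an unadjusted p under 0.05, 1050 genes (9.44%) were called for U12Δ/Δ and 1147 (10.3%) for U6atacΔ/Δ. Higher than WT at that unadjusted level were 3 of the 74 genes in U12Δ/Δ, against 1.79% of all genes, and 5 in U6atacΔ/Δ, against 2.17%, and 0 were lower in either strain, against 7.65% and 8.15% of all genes. All 74 genes passed the filter through their SmnΔ/Δ values, so these counts are a description. The spread in this fit was taken over all 4 strains, and so included the SmnΔ/Δ libraries that chose the genes. Ccp84Ae had an SE of 1.67 for U12Δ/Δ over WT, though its U12Δ/Δ and WT libraries all lay between 0 and 0.0757 TPM. For the genes described above, fold changes against WT are likewise given without a test, since low WT values chose the genes. On the log2(TPM + 1) scale they were 3.56 in U12Δ/Δ and 3.04 in U6atacΔ/Δ for CG43175, and 4.76 in U12Δ/Δ and 3.27 in U6atacΔ/Δ for Dso1. GNBP-like3 had 2.14 in U12Δ/Δ, and CG14958, CG45061 and dyl had 3.38, 2.56 and 1.98 in U6atacΔ/Δ.

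The comparison of U12Δ/Δ with U6atacΔ/Δ shares no library with the choice of the genes. It was fitted to those 4 libraries, across which 22 of the 74 genes and 9975 genes in all averaged 1 TPM or more. Limma called 0 genes (0%) and 0 of the 22 at an adjusted p under 0.05, and at an unadjusted p under 0.05 it called 517 genes (5.18%) and 1 of the 22. That gene was CG14958, whose log2 fold change of U12Δ/Δ over U6atacΔ/Δ was −2.41 ± 0.86 (SE; limma, unadjusted p = 0.0274, adjusted p = 0.855). Ca-alpha1T followed at −2.04 ± 1.08 and dyl at −1.35 ± 0.77, both with an adjusted p of 0.855 in limma. The median of the 22 genes was 0.40, against −0.05 over all genes tested. Over all 74 genes, both U12Δ/Δ libraries were above both U6atacΔ/Δ libraries for 12 (16.2%), against 14.6% of all genes and 9.55% of the others low in WT. They were below for 12 (16.2%), against 14.5% and 8.13%, so that the 2 directions held equal numbers of the 74. Of the others low in WT, 55.9% were listed at 0 in U12Δ/Δ library 1, against 20.3% of the 74 genes. The part of this in the shares was not tested. With 2 libraries per strain and the spread between them, a difference between the minor snRNA deletion strains was not detectable for any of the 22 genes.

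By chromosome, 3L held 25 of them (33.8%, against 19.6% of all genes), X held 17 (22.97%, against 14.9%), 3R held 15 (20.3%, against 23.6%), 2R held 11 and 2L held 6 (8.11%, against 19.7%). No gene of the set was on chromosome 4 or Y. Within 10 kb of another gene of the set lay 25 genes, and within 100 kb 36 genes. When genes with starts up to 20 kb apart were joined, 30 of the 74 fell into 11 runs, of which 6 held 3 or more genes. These distances describe the set, and the same counts for other sets of genes were not computed. Positions are those of the deposited tables, in build dm6.

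On 3R, Ccp84Af, Ccp84Ae and Ccp84Ac lay between 6689602 and 6696271 with only Ccp84Ad between them. On 3L, CG14570, CG14569, CG14568 and CG14565 lay between 21729675 and 21744269. CG14565 was at 193.9 and 14.2 TPM in SmnΔ/Δ and CG14568 at 69.7 and 11.1 TPM, CG14569 was at 99.6 and 24.3 TPM, and CG14570 was at 42.8 and 46.2 TPM. Their neighbours CG14566, CG14567 and CG14572 were at between 18.7 and 633 TPM in SmnΔ/Δ but exceeded 1 TPM in WT. CG14566 was at 162 and 18.7 TPM in SmnΔ/Δ and at 39.4 and 7.04 TPM in WT. CG14572 was at 633 and 52.4 TPM in SmnΔ/Δ and at 112 and 2.68 TPM in WT, so that both overlapped with WT. CG14567, at 97.4 and 21.7 TPM in SmnΔ/Δ and 1.02 and 1.75 TPM in WT, did not. The second run on 3L, between 16264713 and 16281930, held CG13051, CG13069, CG13066 and CG13049 at between 10.08 and 50.02 TPM in SmnΔ/Δ. In U12Δ/Δ library 2, CG13069 was at 4.55 and CG13049 at 5.33 TPM, and the neighbours CG13068 and CG13067 were at 14.9 and 507 TPM.

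On X, CG14424, CG3598 and CG14423 lay between 2925884 and 2946589, inside kirre, a gene of cell adhesion at 5.58 and 10.8 TPM in SmnΔ/Δ and 1.89 and 16.6 TPM in WT. CG14424 stood at 35.7 and 220.6 TPM in SmnΔ/Δ, CG3598 at 23.1 and 49.2 TPM, and CG14423 at 71.8 and 108 TPM, all higher in library 2, as were the intervening CG14422 at 5.23 and 588 TPM and CG32793 at 10.6 and 252 TPM. The second run on X, between 14169592 and 14190755, held CG12480, CG11581 and CG11585. CG11581 stood at 108.6 and 338 TPM in SmnΔ/Δ and did not pass 0.201 TPM in U12Δ/Δ and U6atacΔ/Δ. CG11585 stood at 32.0 and 10.2 TPM in SmnΔ/Δ and at 15.4 and 0.0326 TPM in U6atacΔ/Δ, and its neighbour CG32603 was at 1618 and 17.6 TPM there. On 2R, CG13217 (10.5 and 15.04 TPM in SmnΔ/Δ), CG13216 and CG13226 (57.2 and 13.4 TPM) lay between 11236203 and 11245199, beside Listericin, an antibacterial gene, which was at 23.1 and 14.2 TPM in SmnΔ/Δ and at 7.09 and 9.79 TPM in WT.

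The spans of the 11 runs contained 34 further genes, of which 14 were at 10 TPM or more in both SmnΔ/Δ libraries and 10 were under 1 TPM in both. The difference between the libraries of a strain was itself correlated between adjacent entries of the tables, with a coefficient between 0.438 and 0.525 across genes in the 4 strains. Of such neighbouring entries, 67.6% lie within 100 kb of each other, and the part of this shared deviation in the runs was not tested. Of the 74 genes, 21 overlap another annotated gene, and whether the counting used strand is not given in the sources used here, so that levels of overlapping genes are uncertain. CG42819, at 10.4 and 12.4 TPM in SmnΔ/Δ and at most 0.206 TPM elsewhere, lies next to the U6atac snRNA gene.

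**Figure D5:**
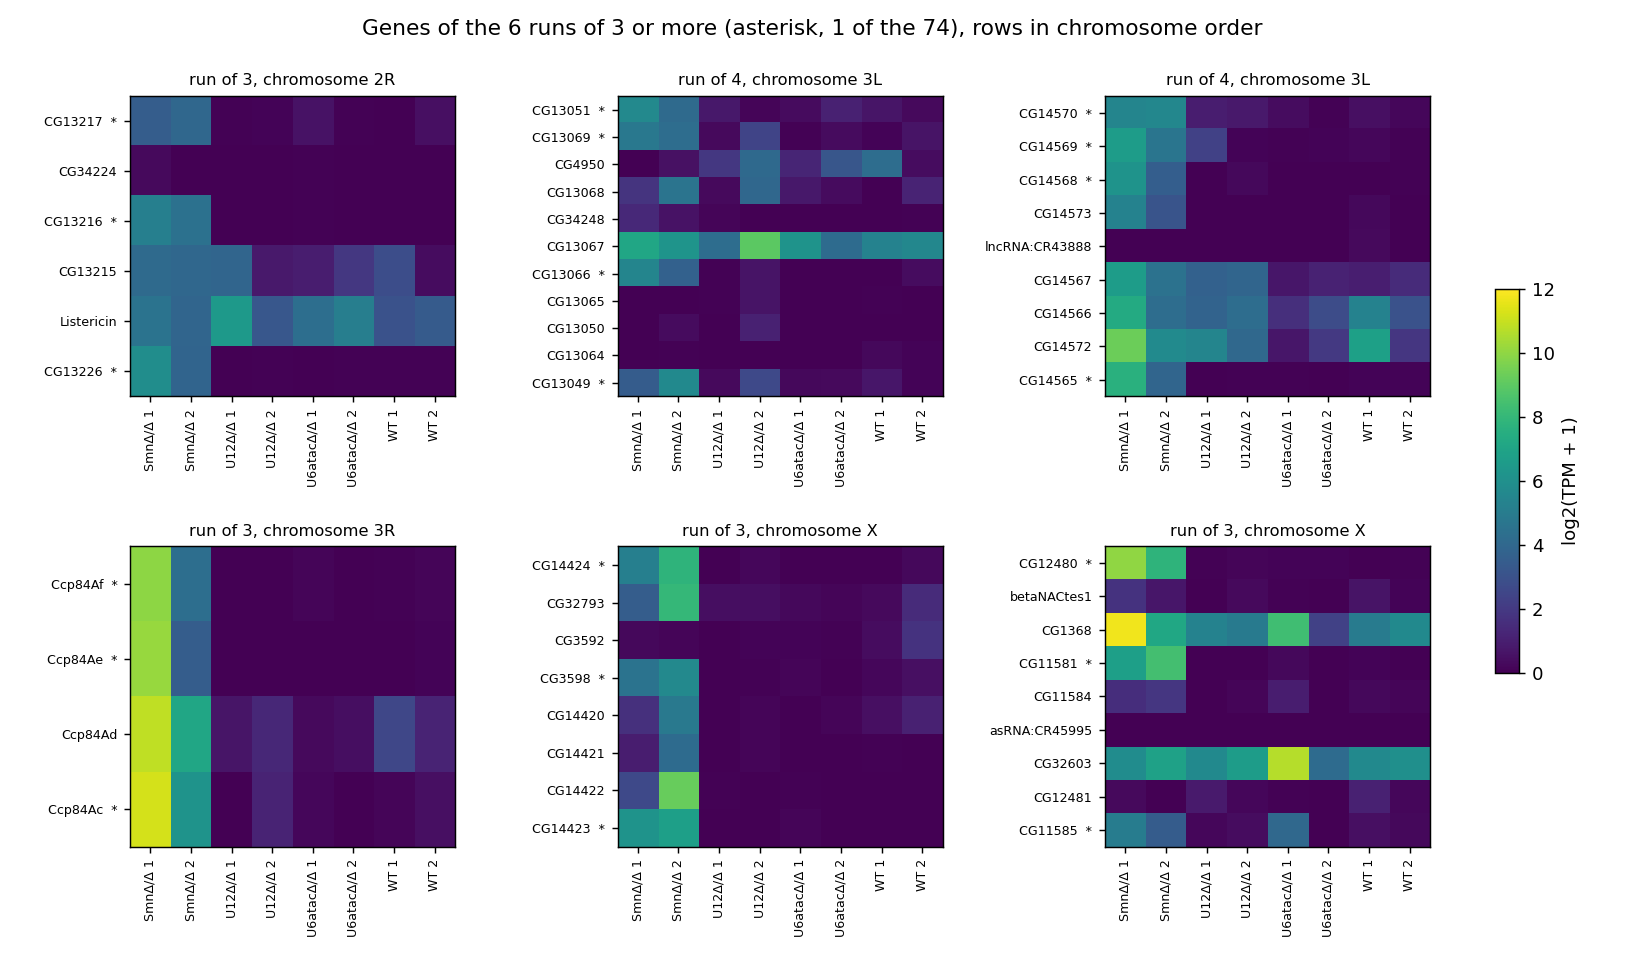
Expression as log2(TPM + 1), from dark (0) to yellow (12), of all genes in the spans of the 6 runs of 3 or more of the 74 genes, with libraries in columns and genes in rows in chromosome order, asterisks marking the 74. The marked genes are at 10 TPM or more in both SmnΔ/Δ columns by the choice, and unmarked neighbours such as Ccp84Ad, CG14566 and CG1368 are bright there too while they also exceed 1 TPM in WT. CG14566 overlaps with WT, at 39.4 TPM in WT library 1 and 18.7 TPM in SmnΔ/Δ library 2.

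At the median, the coding genes of the set had a shorter coding sequence and fewer exons than all protein-coding genes. Their longest coding sequence had a median of 774 bases (73 genes), against 1176 bases for the 13831 protein-coding genes of the tables. At most 2 exons were annotated for 51 of the 73 (69.9%), against 36.6% of all protein-coding genes, and a single transcript for 51 (69.9%), against 49.5%. Some genes of the set were long, among them Ca-alpha1T with a longest coding sequence of 9654 bases and up to 27 exons. The other genes low in WT were not compared in this way.

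Gene lists of related functions held few of the 74 genes. Of the zona pellucida and apical matrix genes, dyl was 1 of 11, of the other cuticle proteins 5 of 20 belonged to the set, and of the ecdysone cascade genes ImpL1 was 1 of 22. The lists of chitin synthesis and binding genes (53 measured), tanning enzymes (26), moulting peptides and receptors (10), antimicrobial and humoral immune genes (42), detoxification genes (157), digestive enzymes (48), glue and larval serum genes (12), testis genes (18), neuron genes (13) and muscle genes (12) contained 0 of them. These lists are not complete. Dso1, GNBP-like3 and lectin-37Da, described above as immune genes, are not on the immune list, and Ca-alpha1T is not on the neuron list. For the genes on the lists that are not among the 74, SmnΔ/Δ was compared with WT in the same limma fit, which called 168 of the 11122 genes (1.51%). Of these, 63 are among the 74, whose values chose them. Of the 11048 genes tested outside the 74, 105 were called (0.95%), 74 of them higher (0.67%) and 31 lower (0.281%). These 11048 genes still include the 32 genes left out by prefix, which met the same limits. Their part in the higher calls was not counted. Of the 11 other cuticle proteins tested, 1 was higher and 0 were lower (Ccp84Ad, log2 fold change 7.08 ± 1.22 SE, limma adjusted p = 0.0265), with a median log2 fold change of 2.41, against −0.18 over all genes. Ccp84Ad lies between genes of the 74 and met the SmnΔ/Δ limit but not the WT limit. The list was also chosen with earlier results known, so this call and median are a description. Of the 12 glue and larval serum genes, 6 were lower and 0 higher, with a median of −10.58 on the log2(TPM + 1) scale. These were the 6 fat body genes Lsp1alpha, Lsp1beta, Lsp1gamma, Lsp2, Fbp1 and Fbp2. The other 11 lists had 0 calls in limma in either direction, with smallest adjusted p between 0.0561 and 0.457 and medians of 0.82 for chitin synthesis and binding genes, −0.38 for ecdysone cascade genes, −1.003 for tanning enzymes and 1.10 for moulting peptides and receptors. In U12Δ/Δ and U6atacΔ/Δ against WT, limma called 0 genes on any of the 13 lists.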

How the data were processed

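Paired-end mRNA sequencing of RNA from 12 pooled whole larvae per library gave 8 libraries, 2 for each strain. The submitters' processing notes name TopHat2, featureCounts and build dm6. The authors deposited TPM for 17473 genes in each library, and each library sums to 1000000. The tool that computed the TPM is not given in the sources used here. The study states the read number per library, but the reads behind a gene cannot be taken from TPM, which leaves the counting error of each value unknown, and abundant transcripts lower the share of all others.

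Libraries were grouped by the strain in the labels. The 74 genes were selected from the TPM by the limits given above (under 1 in both WT, at least 10 in both SmnΔ/Δ). The genes and the gene lists were chosen with earlier results of these data known. Counts of genes past a level are given beside the same count over all genes. Differences between strains were tested on log2(TPM + 1), a pseudocount of 1, with limma 3.58.1 in R 4.3.3 (lmFit, contrasts, eBayes with a trend) and Benjamini-Hochberg adjustment over all genes tested, so folds of low genes are understated. U12Δ/Δ and U6atacΔ/Δ were compared in a fit of their 4 libraries, and each with WT in a fit of all 8. The limma step was checked on simulated data at the spread of these libraries. There it called none of the large changes between U12Δ/Δ and U6atacΔ/Δ. Against WT it missed most changes of every size except the largest, and a part of the largest, so an absence of calls carries little information. The study calls the libraries of a strain biological repeats, of larvae picked at random from vials. The p-values measure the spread between the 2 pools of a strain, taken over all strains in the fit. In the fit of all 8 libraries this includes SmnΔ/Δ, whose values chose the 74 genes.

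Named are the 12 genes with the highest SmnΔ/Δ mean, the 8 highest and 6 lowest over the 4 minor snRNA deletion libraries, every gene on one of the 13 lists, the 3 with the smallest p between U12Δ/Δ and U6atacΔ/Δ, the 3 nearest to each side of each limit, and runs of 3 or more. Others were named for their role or position after their values were seen. Symbols matched 73 of the 74 genes. Python 3.11.15 with numpy 2.4.6 and pandas 2.3.3 gave the other values, and matplotlib 3.10.9 the plots. No sequences were analysed here.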

Additional observations from a re-analysis of the deposited data

Results flagged for a closer look

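Muc91C was the single gene of the 74 whose U12Δ/Δ and U6atacΔ/Δ libraries lay on opposite sides of WT. It was at 0.0485 and 0 TPM in U12Δ/Δ, 0.172 and 0.120 TPM in U6atacΔ/Δ, and 0.0659 and 0.0671 TPM in WT, which is a change of −0.059 in U12Δ/Δ and of 0.10 in U6atacΔ/Δ on the log2(TPM + 1) scale. Among all genes, 135 showed this same arrangement and 141 the opposite one. The difference was not tested, and all 6 values were under 0.2 TPM.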

How the results depend on the processing

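The number of genes meeting the limits was 112 with a WT limit of 2, 127 with a SmnΔ/Δ minimum of 5 and 40 with a minimum of 20, and lay between 91 and 145 when 1 of the 4 libraries was left out (134 without WT library 1, 135 and 145 without a SmnΔ/Δ library). It was 54 with a WT limit of 0.5 and 78 after median-ratio scaling. At 10 TPM or more in both U12Δ/Δ libraries there were 2 genes, 1 at a level of 20, and between 2 and 3 with a library left out. For U6atacΔ/Δ the 1 gene became 2 after median-ratio scaling, 4 at a level of 5, 0 at 20, and between 3 and 5 with a library left out. The genes under 1 TPM in all 4 libraries numbered 44, and between 33 and 53 under the alternatives. Limma called 0 genes in both comparisons with WT, except for 18 in U6atacΔ/Δ without a filter on the mean TPM, and, without WT library 2, 43 in U12Δ/Δ and 58 in U6atacΔ/Δ, so the counts with a library left out ranged between 0 and 43 and between 0 and 58. Under every alternative run, 0 of the 74 genes were called in any of the 3 comparisons, and the fold changes followed (CG14958, Ca-alpha1T and dyl between U12Δ/Δ and U6atacΔ/Δ, CG43175 and Dso1 against WT) kept their sign where a value was obtained. The causes of these changes were not tested. The SmnΔ/Δ calls outside the 74 genes, with the genes left out by prefix still included, numbered 105, and between 39 and 220 under alternatives added after seeing the data. With the replicate number as a block limma called 0 genes in the 3 comparisons. The labels share only numbers, and same-numbered libraries deviated together at correlations between −0.021 and 0.108, so they were not treated as pairs. The planned promoter motif shares were not run. With 2 pools per strain, no outlying library could be tested, and TPM gives no read number per gene, which limits what values under 1 TPM can show.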
